A study of Mus musculus with 14 samples.

Results

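Germline genes are genes whose main work lies in germ cells: pairing and recombining chromosomes in meiosis, silencing transposons through small RNAs bound by PIWI proteins (piRNAs), and binding germ cell mRNAs. A set of 36 of them was followed here across epidermal cells with and without G9a. A gene was taken as measured where the array annotation gave at least 1 probe set carrying its symbol and no other, and the probe set with the highest mean over 14 arrays stood for it. By this rule 32 of the 36 genes were measured, out of 17097 genes in all, and Dpep3, Nanos3, Slc25a31 and Sycp1 were not. The 32 genes had 39 probe sets, since 7 of them (Asz1, Brdt, Dazl, Dmc1, Piwil4, Stk31 and Tuba3a) had 2.

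The arrays came from epidermis of mice aged 15 weeks in homeostasis, with no treatment given in the labels. Bulge cells, from the stem cell niche of the hair follicle, gave 4 arrays with a conditional knockout of G9a (cKO) and 3 wild-type (WT) arrays. The interfollicular epidermis (IFE), the sheet between the follicles, also gave 4 cKO and 3 WT arrays. Neither the Cre driver, nor the deleted part of the gene, nor the way bulge and IFE cells were separated is given in the sources used here. Whether the replicates were separate animals is not said in the labels, so that p-values measure only the spread between samples. The arrays measured bulk RNA, in which fewer cells of a type and less RNA per cell cannot be told apart.

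G9a, encoded by Ehmt2, forms a heterodimer with GLP and places methyl groups on lysine 9 of histone H3, a mark of silent chromatin. In somatic cells many germline genes are held silent by DNA methylation at CpG-rich promoters. A polycomb complex that contains MGA, MAX and E2F6 and reads E-box and E2F motifs represses an overlapping group, and in mouse embryonic stem cells G9a and GLP are needed to silence some of these genes. The arrays bear on whether germline genes gain signal in adult epidermis that has lost G9a.

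Promoter windows, from 250 bases before the start of a gene to 50 bases after it, were taken from RefSeq (GRCm38.p6) and held 30 of the 36 genes in 35 windows. Of 3 motifs searched on both strands, none of which contains another, the E-box CACGTG lay in 16 of the 35 windows (45.7%), against 7.15% of the 32851 windows of all genes. Among windows with a CpG content above 0.6 of that computed from their base composition, it lay in 68.2% of those of the germline genes and in 11.3% of all. The E2F motif TCCCGC, read as GCGGGA on the other strand, lay in 14 windows (40%), against 19.98% of all, and among the CpG-rich windows the shares were 50% and 43.1%. The cyclic AMP response element TGACGTCA lay in none of the 35 windows and in 1.79% of all. The windows of the germline genes had a median of 18 CpG dinucleotides, against 7 over all windows. These matches are descriptions of letters and not of bound sites.

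Printed here are the windows of the 2 genes that rose without G9a and have one in the table (Rhox5 and Syce1), of 2 genes that differed between compartments (Sycp3 and Tdrd1), and of Ddx4, a germ cell marker whose signal was among the lowest. Capitals mark the E-box CACGTG and the E2F motif as GCGGGA, and each sequence runs 5' to 3' on the strand of its gene. The Rhox5 window is chrX:37754358-37754657 (plus strand), the Syce1 window chr7:140787805-140788104 (minus strand), the Sycp3 window chr10:88459337-88459636 (plus strand), the Tdrd1 window chr19:56825959-56826258 (plus strand) and the Ddx4 window chr13:112652261-112652560 (minus strand).
Rhox5: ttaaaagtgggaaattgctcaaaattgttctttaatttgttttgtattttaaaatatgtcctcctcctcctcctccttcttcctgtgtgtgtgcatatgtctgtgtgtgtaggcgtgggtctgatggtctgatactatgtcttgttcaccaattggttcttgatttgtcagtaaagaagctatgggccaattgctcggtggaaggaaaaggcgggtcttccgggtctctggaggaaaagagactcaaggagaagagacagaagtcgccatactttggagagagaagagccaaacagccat
Syce1: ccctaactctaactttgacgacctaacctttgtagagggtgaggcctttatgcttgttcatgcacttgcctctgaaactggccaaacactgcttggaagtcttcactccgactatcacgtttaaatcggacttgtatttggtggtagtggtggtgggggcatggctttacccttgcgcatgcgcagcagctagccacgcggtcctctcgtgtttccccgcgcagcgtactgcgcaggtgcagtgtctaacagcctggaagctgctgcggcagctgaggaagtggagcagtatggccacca
Sycp3: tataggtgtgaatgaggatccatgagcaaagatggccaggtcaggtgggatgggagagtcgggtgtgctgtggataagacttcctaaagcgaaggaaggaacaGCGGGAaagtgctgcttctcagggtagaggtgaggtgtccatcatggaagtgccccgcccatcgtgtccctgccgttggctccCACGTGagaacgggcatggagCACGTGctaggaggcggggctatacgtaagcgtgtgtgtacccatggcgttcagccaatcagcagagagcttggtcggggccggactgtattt
Tdrd1: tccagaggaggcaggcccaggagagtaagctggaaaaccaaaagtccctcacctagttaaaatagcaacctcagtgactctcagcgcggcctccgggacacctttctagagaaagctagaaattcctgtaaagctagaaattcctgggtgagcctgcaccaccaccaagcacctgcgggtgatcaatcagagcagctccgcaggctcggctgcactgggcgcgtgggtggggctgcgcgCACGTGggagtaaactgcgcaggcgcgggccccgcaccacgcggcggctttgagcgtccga
Ddx4: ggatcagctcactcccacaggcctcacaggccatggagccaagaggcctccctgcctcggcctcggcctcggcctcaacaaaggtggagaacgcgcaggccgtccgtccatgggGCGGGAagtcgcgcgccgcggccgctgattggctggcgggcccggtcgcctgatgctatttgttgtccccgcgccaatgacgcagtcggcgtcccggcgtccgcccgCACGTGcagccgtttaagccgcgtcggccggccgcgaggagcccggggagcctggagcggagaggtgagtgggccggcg
The windows of Rhox5 and Syce1 held neither motif. The Sycp3 window held E-boxes that begin at -64 and -43, counted in bases from the start of the gene, and an E2F motif that begins at -147, the Ddx4 window an E-box at -29 and an E2F motif at -136, and the Tdrd1 window an E-box at -11. Tdrd1 had 3 windows in the table, of which 2 held the E-box. Piwil2, which fell in bulge cKO cells, had no window in the table.

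Each value is a log2 signal per probe set, so that a difference of 1 is a 2-fold change, and array medians lay between 5.76 and 5.84. One Ehmt2 probe set read 5.85 to 6.02 in bulge cKO, against 9.51 to 9.69 in bulge WT, and 5.95 to 6.09 in IFE cKO, against 9.59 to 9.78 in IFE WT. The other Ehmt2 probe set did not pass the test in either compartment (log2 differences of 0.01 and 0.08). In both compartments, cKO replicates 2 and 3 stood apart on the first principal component, which held 72.5% of the variance. In bulge they lay at -6.90 and -11.3, the other cKO arrays at -36.7 and -37.2 and the WT arrays from -48.2 to -42.4. In IFE they lay at 23.3 and 22.98, the other cKO arrays at 40.1 and 37.4 and the WT arrays from 29.8 to 39.3.

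The mean signal of 10 bulge stem cell markers was 10.5, 9.79, 9.94 and 10.7 in bulge cKO replicates 1 to 4, against 10.8 to 10.9 in bulge WT. Of the 10, 0 passed the threshold in bulge (limma), and 6 had an unadjusted p under 0.05, all lower in cKO. In IFE it was 7.90 and 7.91 on cKO replicates 2 and 3, and 7.25 to 7.31 on the other IFE arrays of both genotypes. For 10 markers of differentiated epidermis the mean signal was 7.95, 9.71, 9.38 and 8.91 in bulge cKO, against 7.34 to 7.91 in bulge WT, and 3 of the 10 rose. Markers of antigen presenting cells averaged 7.58 to 8.33 in bulge cKO, against 6.90 to 7.15 in bulge WT, and 4 of 6 rose. T cell markers averaged 5.34 to 6.46 in bulge cKO, against 5.06 to 5.32 in bulge WT, and fibroblast markers, whose groups overlapped, averaged 5.16 to 5.91, against 4.98 to 5.22, with 0 of 6 past the threshold in each list (limma; 6 and 2 at an unadjusted p under 0.05). Sebaceous gland markers averaged 7.27 to 7.83 in bulge cKO, against 7.17 to 7.28 in bulge WT, and 1 of 4 rose. In bulge cKO 1 of 6 basal keratinocyte markers fell and 1 of 4 endothelial markers rose. Over all genes, 1.98% were higher and 1.85% lower in bulge cKO, and 25.7% had an unadjusted p under 0.05 (limma). In IFE no marker of these lists passed, where 0.497% of all genes did and 11% had an unadjusted p under 0.05 (limma). The IFE groups did not overlap for T cell markers, at 5.98 to 6.54 in cKO, against 5.60 to 5.95 in WT (4 of 6 at an unadjusted p under 0.05). They did not overlap for sebaceous gland markers either, at 7.40 to 7.73 in cKO, against 7.05 to 7.33 in WT (2 of 4). The part of these cell types in the results below was not tested.

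Most germline genes sat low on the arrays and hardly moved. The mean over 14 arrays lay below the median of all probe sets (5.79) for 22 of the 32 genes, against 40.0% of all genes, and above it for 10. Signals of different probe sets also depend on how well each binds its target, so this places the genes on the array and does not rank their transcripts. The arrays carry 23 nonspecific control probe sets, of 3 to 25 G and C bases, which read between 3.18 and 7.74, and 31 of the 32 genes lay within that range on every array. Tuba3a, a testis alpha-tubulin, lay above it on every array, as did the mean of 26.6% of all genes. The G and C content of the germline probe sets was not known, so no gene could be matched to its own control.

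**Figure D1:**
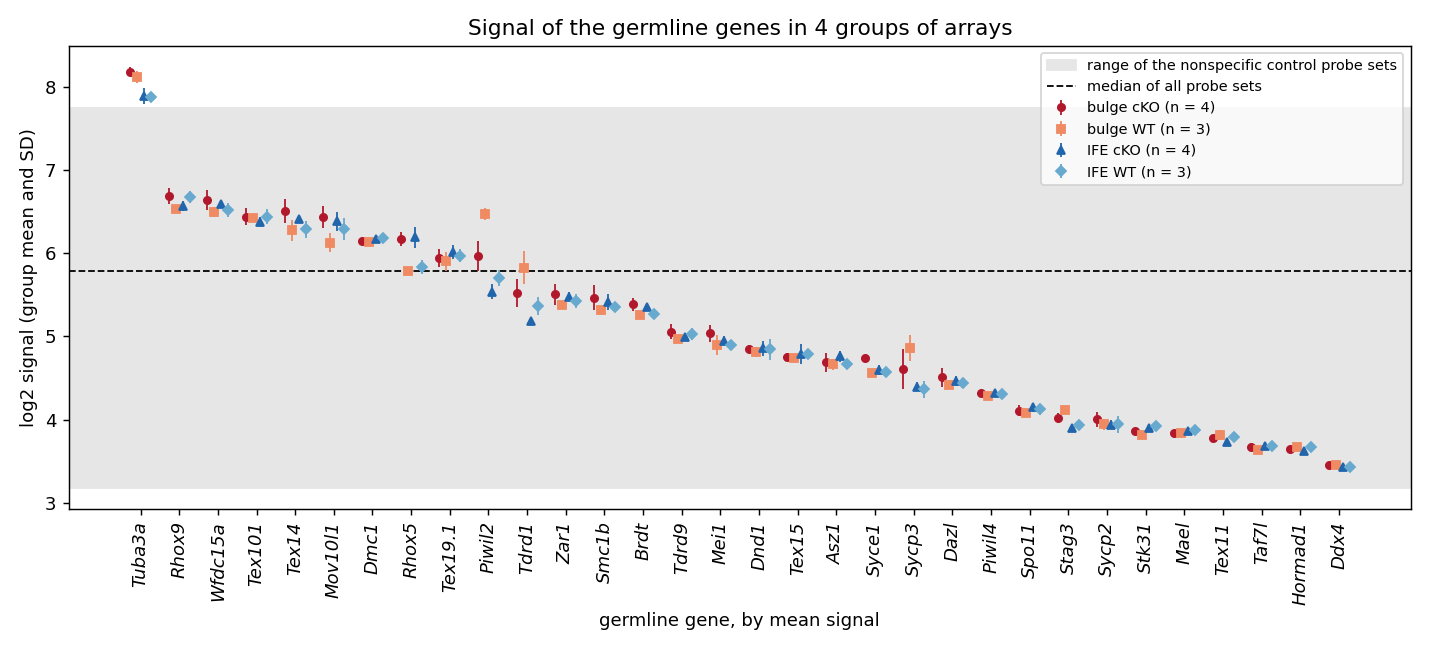
Log2 signal of the 32 measured germline genes on the vertical axis, ordered by their mean over 14 arrays on the horizontal axis. Points are group means and bars the SD (bulge cKO n = 4, bulge WT n = 3, IFE cKO n = 4, IFE WT n = 3), the grey band is the range of the nonspecific controls (3.18 to 7.74) and the dashed line the median of all probe sets (5.79). Tuba3a lies above the band, and Piwil2, Tdrd1, Rhox5 and Sycp3 show the widest gaps between groups.

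The spread over the 14 arrays was small: the median range of a germline gene was 0.27, against 0.50 over all genes, and 26 of the 32 ranged over less than 0.5. Ddx4, the RNA helicase VASA that marks germ cells, read 3.50, 3.43, 3.47 and 3.44 in bulge cKO, against 3.44, 3.47 and 3.46 in bulge WT. In IFE it read 3.42, 3.46, 3.42 and 3.42 in cKO, against 3.41, 3.42 and 3.45 in WT. These values overlapped between all 4 groups. The mean signal of the 6 measured markers that define germ cells (Ddx4, Dazl, Sycp3, Mael, Dnd1 and Tex101) was 4.60 to 4.64 in bulge cKO, against 4.62 to 4.65 in bulge WT, and 4.55 to 4.58 in both IFE groups.

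In bulge cells, Rhox5 and Syce1 rose and Piwil2 fell without G9a, and the other 29 germline genes did not pass the threshold (limma, Benjamini-Hochberg adjusted p under 0.05 over all genes). Thus 2 of 32 were higher and 1 lower, where 1.98% of all genes were higher and 1.85% lower. These counts over all genes moved with single arrays, to 57 higher and 59 lower without bulge WT replicate 1 and to 1189 and 1364 without bulge cKO replicate 4, against 339 and 317. Median centring of the arrays made them 234 higher and 330 lower. The median log2 difference was 0.04 over the germline genes and 0.01 over all genes, with 26 germline genes above 0 and 6 below. An unadjusted p under 0.05 was reached by 11 of the 32, where 25.7% of all genes reached it. The groups did not overlap for 6 of the 32 (Rhox5, Syce1, Mov10l1, Rhox9 and Brdt higher, Piwil2 lower), where 18.5% of all genes did not overlap.

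Standard errors of the log2 differences lay between 0.03 and 0.11. The 95% intervals, not adjusted for the number of genes, lay within -1 to 1 for all 32 genes in bulge, and within -0.5 to 0.5 for 27. The highest upper bound in bulge was 0.54 (Rhox5) and the lowest lower bound -0.70 (Piwil2). Without cKO replicates 2 and 3 of both compartments, 0 germline genes passed in bulge, 4 had an unadjusted p under 0.05, and 20 lay above 0 and 12 below (median 0.02). In the same fit, 60 of all 17097 genes were higher and 20 lower, 1604 had an unadjusted p under 0.05, and the median was 0.0017.

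**Figure D2:**
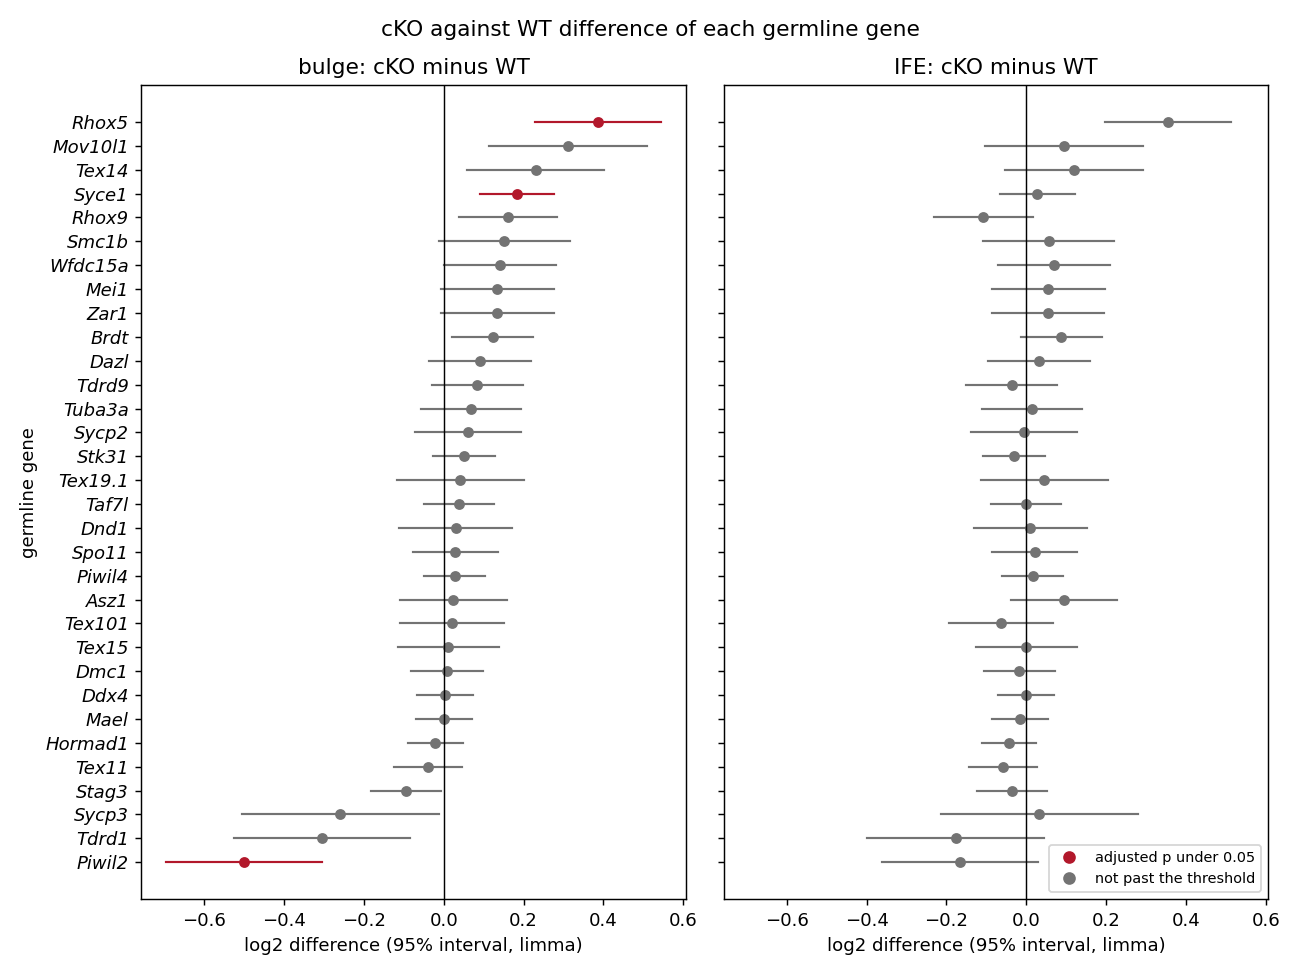
Log2 difference, cKO minus WT, of each germline gene (rows) in bulge cells (left) and in IFE cells (right), with the 95% interval from limma (n = 4 cKO and 3 WT arrays in each compartment). Red points passed an adjusted p under 0.05: Rhox5 and Syce1 above 0 and Piwil2 below 0 in bulge, and no gene in IFE, where Rhox5 lay at 0.36.

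In IFE cells no germline gene passed the threshold, where 0.497% of all genes did. Only Rhox5 had an unadjusted p under 0.05, 1 of 32, where 11% of all genes did. The groups did not overlap for 4 of the 32, Rhox5 and Brdt higher and Tdrd1 and Stk31 lower, where 11% of all genes did not overlap. The second probe set of Stk31 ran the other way, from 3.586 to 3.634 in IFE cKO, against 3.553 to 3.585 in IFE WT (0.04). The probe sets of Stk31 thus disagreed in direction. The median log2 difference was 0.01 over the germline genes and -0.01 over all genes, with 18 above 0 and 14 below, and it ran from -0.0033 to 0.03 over the alternative settings. The 95% intervals lay within -0.5 to 0.5 for 31 of the 32 genes. The highest upper bound was 0.51 (Rhox5) and the lowest lower bound -0.40 (Tdrd1).

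Of 4 measured genes of chromatin and transcription, 1 rose in bulge (median 0.14) and 0 passed in IFE (median 0.04). Rhox5, an X-linked homeobox gene known from Sertoli cells of the testis and from placenta, read 6.16, 6.29, 6.17 and 6.08 in bulge cKO, against 5.84, 5.74 and 5.78 in bulge WT. In IFE it read 6.07, 6.17, 6.15 and 6.37 in cKO, against 5.87, 5.73 and 5.89 in WT. All 8 cKO arrays lay above all 6 WT arrays. In bulge the log2 difference was 0.39 ± 0.07 (SE; limma, adjusted p = 0.0173), and in IFE it was 0.36 ± 0.07 (adjusted p = 0.0547). The difference between these effects was 0.03 (95% interval -0.19 to 0.25, adjusted p = 0.907). The bulge difference was 0.33 without cKO replicates 2 and 3 (adjusted p = 0.291).

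Rhox9, of the same reproductive homeobox cluster on the X chromosome, read 6.67, 6.83, 6.64 and 6.62 in bulge cKO, against 6.50, 6.54 and 6.55 in bulge WT. On the IFE arrays it read 6.62, 6.62, 6.53 and 6.50 in cKO, against 6.74, 6.60 and 6.70 in WT. The cKO arrays were above the WT arrays in bulge and overlapped them in IFE, with log2 differences of 0.16 (adjusted p = 0.109) and -0.11 (adjusted p = 0.538). The difference between these effects was 0.27 (adjusted p = 0.217). Brdt, a testis bromodomain protein that binds acetylated histones, did not overlap between cKO and WT in either compartment, with 0.12 for bulge (adjusted p = 0.132) and 0.09 for IFE (adjusted p = 0.543). Its second probe set gave 0.12 and 0.01. Taf7l, a germ cell subunit of TFIID, gave 0.04 in bulge and -0.00 in IFE.

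**Figure D3:**
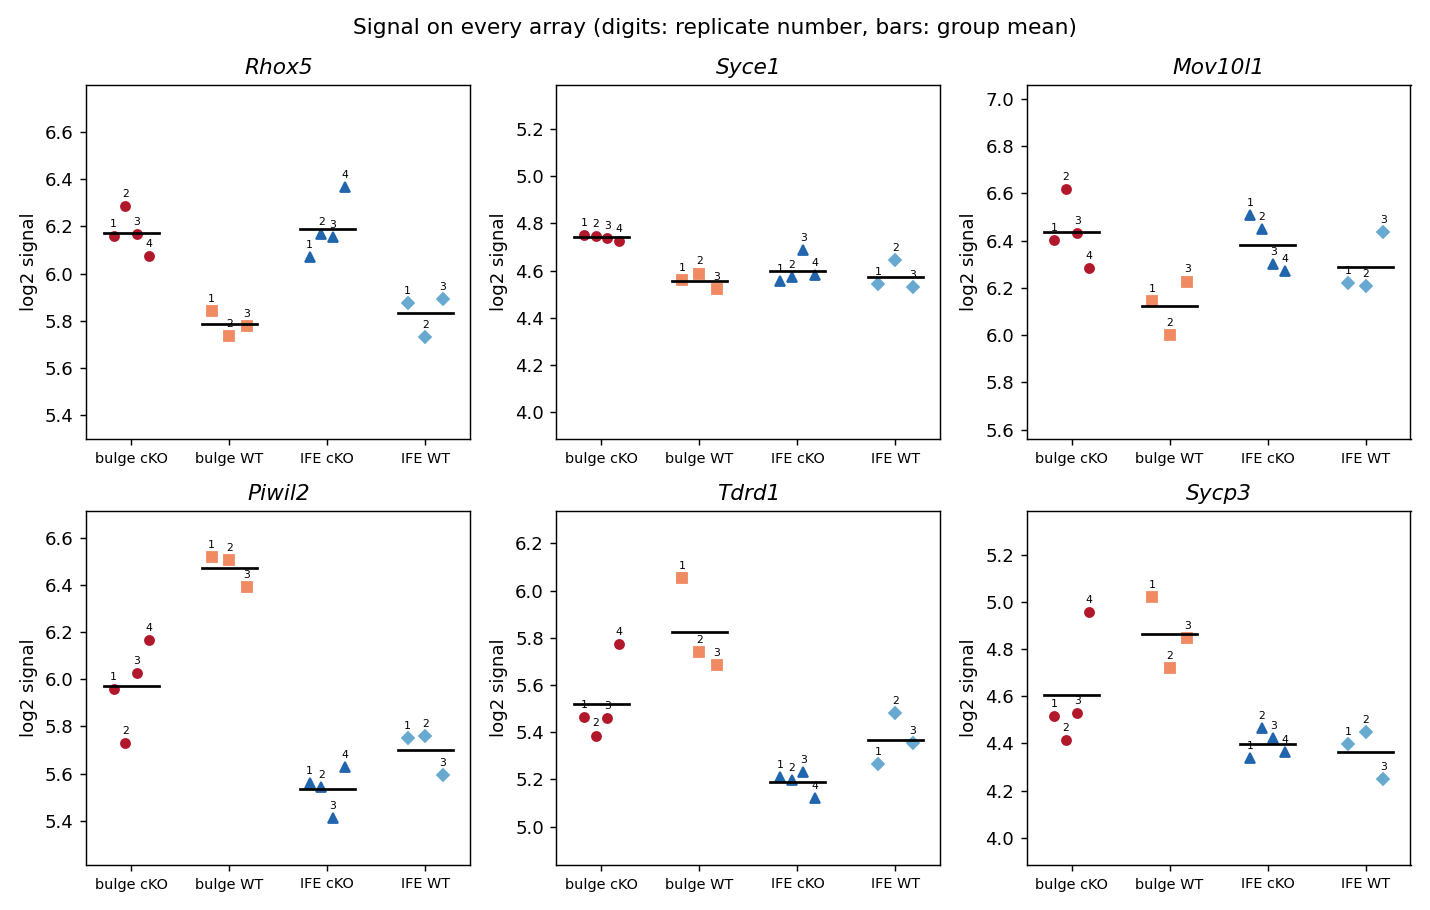
Log2 signal of Rhox5, Syce1, Mov10l1, Piwil2, Tdrd1 and Sycp3 on every array, by group on the horizontal axis, with digits for the replicate number and bars for the group mean. Every panel spans the same number of log2 units. Every cKO array of Rhox5 lies above every WT array, and Piwil2 is lower in bulge cKO (5.73 to 6.17) than in bulge WT (6.39 to 6.52).

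Among 6 measured genes of the synaptonemal complex, which zips paired chromosomes together, and of meiotic cohesin, 1 rose and 0 fell in bulge (median 0.02) and 0 passed in IFE (median 0.01). Syce1, a central element protein of the complex, read 4.75, 4.75, 4.74 and 4.73 in bulge cKO, against 4.56, 4.59 and 4.52 in bulge WT. Its IFE signals were 4.55, 4.57, 4.69 and 4.58 in cKO, against 4.54, 4.65 and 4.53 in WT. The bulge groups did not overlap and the IFE groups did. The log2 difference was 0.18 ± 0.04 (SE) in bulge cells (adjusted p = 0.0387), against 0.03 for IFE (adjusted p = 0.889), with a difference between effects of 0.16 (adjusted p = 0.293). Syce1 passed in bulge under 5 of 16 alternative settings and lost its call under cyclic loess (0.15, adjusted p = 0.0982) and median centring (0.16, adjusted p = 0.0664).

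Sycp3, an axial element protein, read 4.51, 4.41, 4.53 and 4.96 in bulge cKO, against 5.02, 4.72 and 4.85 in bulge WT. On the IFE arrays it read 4.34, 4.46, 4.42 and 4.37 in cKO, against 4.40, 4.45 and 4.25 in WT. Bulge cKO replicates 1 to 3 lay below every bulge WT array and replicate 4 among them, giving -0.26 for bulge (adjusted p = 0.177) and 0.03 for IFE (adjusted p = 0.961). Stag3, the meiotic cohesin subunit, gave -0.09 (adjusted p = 0.170) and -0.03. The cohesin subunit Smc1b gave 0.15 (adjusted p = 0.226) and 0.06, and Sycp2 and Hormad1, of the chromosome axes, lay between -0.04 and 0.06 in both compartments.

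Of the recombination genes, Spo11, which cuts DNA to start meiotic recombination, Dmc1, the meiotic recombinase, and Mei1 gave log2 differences of 0.03, 0.01 and 0.13 in bulge and of 0.02, -0.02 and 0.06 in IFE, and none of the 3 passed. The second probe set of Dmc1 gave 0.14 in bulge (adjusted p = 0.116) and 0.03 in IFE.

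All 10 genes of the piRNA pathway and of germ granules were measured, of which 1 fell and 0 rose in bulge (median 0.03) and 0 passed in IFE (median -0.01). Piwil2, a PIWI protein that binds piRNAs in the testis, read 5.96, 5.73, 6.03 and 6.17 in bulge cKO, against 6.52, 6.50 and 6.39 in bulge WT. In IFE it read 5.56, 5.54, 5.41 and 5.63 in cKO, against 5.75, 5.76 and 5.60 in WT. The bulge groups did not overlap, and in IFE 1 cKO array lay above the lowest WT array. For bulge the log2 difference was -0.50 ± 0.09 (SE, 95% interval -0.70 to -0.31, adjusted p = 0.0136), for IFE it was -0.17 (adjusted p = 0.545), and the difference between these effects was -0.33 (adjusted p = 0.286). The bulge difference was -0.41 without cKO replicates 2 and 3 (adjusted p = 0.118).

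Tdrd1, a Tudor protein that docks onto PIWI proteins, read 5.47, 5.39, 5.46 and 5.77 in bulge cKO, against 6.05, 5.74 and 5.68 in bulge WT. Its IFE signals were 5.21, 5.20, 5.23 and 5.12 in cKO, against 5.27, 5.48 and 5.35 in WT. Bulge cKO replicate 4 overlapped the WT arrays and the IFE groups did not overlap, with log2 differences of -0.31 (adjusted p = 0.0973) and -0.18 (adjusted p = 0.581). Mov10l1, an RNA helicase needed to make piRNAs, ran the other way, from 6.29 to 6.62 in bulge cKO, against 6.002 to 6.23 in bulge WT (0.31, adjusted p = 0.0714), with 0.09 in IFE (adjusted p = 0.799). By the probe sets that stood for them, the other 7 lay between 0.00 and 0.08 in bulge and between -0.04 and 0.09 in IFE. These were Piwil4, Asz1, Mael, Tdrd9, Ddx4, Stk31 and Tex19.1. The second probe set of Piwil4 gave -0.04 in bulge, where the groups did not overlap (3.60 to 3.63 in cKO, against 3.64 to 3.69 in WT). That of Stk31 gave 0.05 in bulge, also without overlap (3.57 to 3.63 in cKO, against 3.51 to 3.55 in WT). The second probe sets of Dmc1 and Tuba3a did not overlap in bulge either, and both were higher in cKO.

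The RNA binding proteins Dazl, which acts in germ cell translation, Dnd1, which is needed for primordial germ cells, and the oocyte protein Zar1 gave 0.09, 0.03 and 0.13 in bulge and 0.03, 0.01 and 0.05 in IFE, and none passed. Of the testis expressed genes, Tex14, which stabilises the bridges between dividing germ cells, read 6.52, 6.70, 6.46 and 6.37 in bulge cKO, against 6.17, 6.24 and 6.42 in bulge WT. On the IFE arrays it read 6.42, 6.42, 6.43 and 6.35 in cKO, against 6.22, 6.23 and 6.40 in WT. The groups overlapped in both compartments, with log2 differences of 0.23 (adjusted p = 0.103) and 0.12 (adjusted p = 0.654). Tex101, a germ cell surface glycoprotein, read 6.41, 6.57, 6.45 and 6.33 in bulge cKO, against 6.42, 6.43 and 6.41 in bulge WT. Its IFE signals were 6.45, 6.32, 6.38 and 6.35 in cKO, against 6.35, 6.43 and 6.53 in WT. Tex101, Tex11 and Tex15 lay between -0.06 and 0.02 in both compartments.

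Wfdc15a, of the WAP protease inhibitor family, read 6.77, 6.68, 6.62 and 6.48 in bulge cKO, against 6.46, 6.46 and 6.57 in bulge WT. Its IFE signals were 6.64, 6.61, 6.54 and 6.57 in cKO, against 6.50, 6.45 and 6.61 in WT. The groups overlapped in both compartments, with log2 differences of 0.14 (adjusted p = 0.192) and 0.07 (adjusted p = 0.782). Tuba3a gave 0.07 and 0.01, and its arrays are given with the compartments. Its second probe set gave 0.16 in bulge (adjusted p = 0.0688 among all probe sets tested singly).

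No germline gene passed the test of the difference between the bulge and the IFE effect (limma), where 0.105% of all genes did. An unadjusted p under 0.05 was reached by Rhox9, Piwil2 and Syce1, 3 of 32, where 14.1% of all genes reached it. Of the 32 genes, 17 had a log2 difference above 0 in both compartments. Over all genes, 53.8% lay above 0 in bulge and 45.2% in IFE. The share of all genes above 0 in both was not computed, so the 17 cannot be set against it.

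More germline genes passed between compartments than between genotypes, as did more of all genes. In cKO mice 5 germline genes were higher in bulge (Tuba3a, Piwil2, Syce1, Tdrd1 and Stag3) and 0 lower, where 17.6% of all genes were higher and 14.6% lower. In WT mice 5 were higher in bulge (Piwil2, Stag3, Tdrd1, Sycp3 and Tuba3a) and 1 lower (Stk31), where 18.4% of all genes were higher and 16.6% lower. The second probe set of Stk31 gave -0.03 in WT and did not pass (limma, adjusted p = 0.490 among all probe sets tested singly). With each array centred on its median, the calls over all genes were 2045 higher and 3118 lower in cKO, against 3007 and 2489 as deposited, and 2730 higher and 3695 lower in WT, against 3152 and 2846. The median over the germline genes was 0.04 in cKO, against 0.03 over all genes, and ran from -0.0058 to 0.07 over the alternative settings. In WT it was -0.02, against -0.01 over all genes.

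Piwil2 had the largest of these differences. In cKO mice it read 5.73 to 6.17 in bulge, against 5.41 to 5.63 in IFE, which gave 0.43 ± 0.08 (log2 difference and SE; limma, adjusted p = 0.00229). In WT mice it read 6.39 to 6.52 in bulge, against 5.60 to 5.76 in IFE, which gave 0.77 ± 0.10 (adjusted p = 9.1e-05). Bulge and IFE arrays of a genotype did not overlap, and the cKO and the WT call both held under every alternative run. Among these, the filter on dim probe sets kept Piwil2 only through its bulge signal. For Sycp3 the bulge minus IFE difference was 0.21 in cKO (adjusted p = 0.156) and 0.50 in WT (adjusted p = 0.0067). For Tdrd1 it was 0.33 in cKO (adjusted p = 0.0188) and 0.46 in WT (adjusted p = 0.00568). The test of the difference between these gaps is the test of the difference of the cKO effects given above, which none of the 3 genes passed (-0.33 for Piwil2, -0.29 for Sycp3 and -0.13 for Tdrd1).

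Stag3 read 4.02, 4.10, 4.04 and 3.95 in bulge cKO, against 3.91, 3.90, 3.89 and 3.90 in IFE cKO (0.12, adjusted p = 0.0228). In WT it read 4.11, 4.09 and 4.16 in bulge, against 3.93, 3.90 and 3.97 in IFE (0.18, adjusted p = 0.00524). Bulge and IFE did not overlap in either genotype, and the SD within a group was at most 0.06. The cKO call was lost in 8 of 17 alternative settings, among them median centring (0.08, adjusted p = 0.112) and the fit without cKO replicates 2 and 3 (0.08, adjusted p = 0.370). Tuba3a read 8.20, 8.24, 8.19 and 8.11 in bulge cKO, against 7.94, 8.00, 7.83 and 7.79 in IFE cKO (0.29, adjusted p = 0.00166). In WT it read 8.07, 8.08 and 8.20 in bulge, against 7.85, 7.85 and 7.92 in IFE (0.24, adjusted p = 0.00878). The second probe set of Tuba3a gave 0.10 in cKO (adjusted p = 0.0789) and -0.06 in WT (adjusted p = 0.367), so the probe sets of this gene disagreed. Both are of kinds that can bind near-identical tubulin genes, and the part of other tubulins in its signal was not tested.

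Both germline genes and dim genes were shifted upward the most on 1 array. On bulge cKO replicate 2 the median deviation of the germline genes from their means over all arrays was 0.11, while on the other 13 arrays it lay between -0.04 and 0.03. Of the 32 genes, 13 had their highest value on this array, and the share of all genes that did was not computed. The 6846 genes whose mean lay below 5.79 deviated by 0.07 there, and the nonspecific controls by -0.05. On bulge cKO replicate 3 the dim genes deviated by 0.04, the germline genes by 0.03 and the nonspecific controls by -0.07. In bulge, cKO minus WT, 81.2% of the germline genes lay above 0, beside 72.5% of these dim genes, whose median was 0.05. In IFE 56.2% of the germline genes lay above 0, beside 43.9% of the dim genes, whose median was -0.01.

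**Figure D4:**
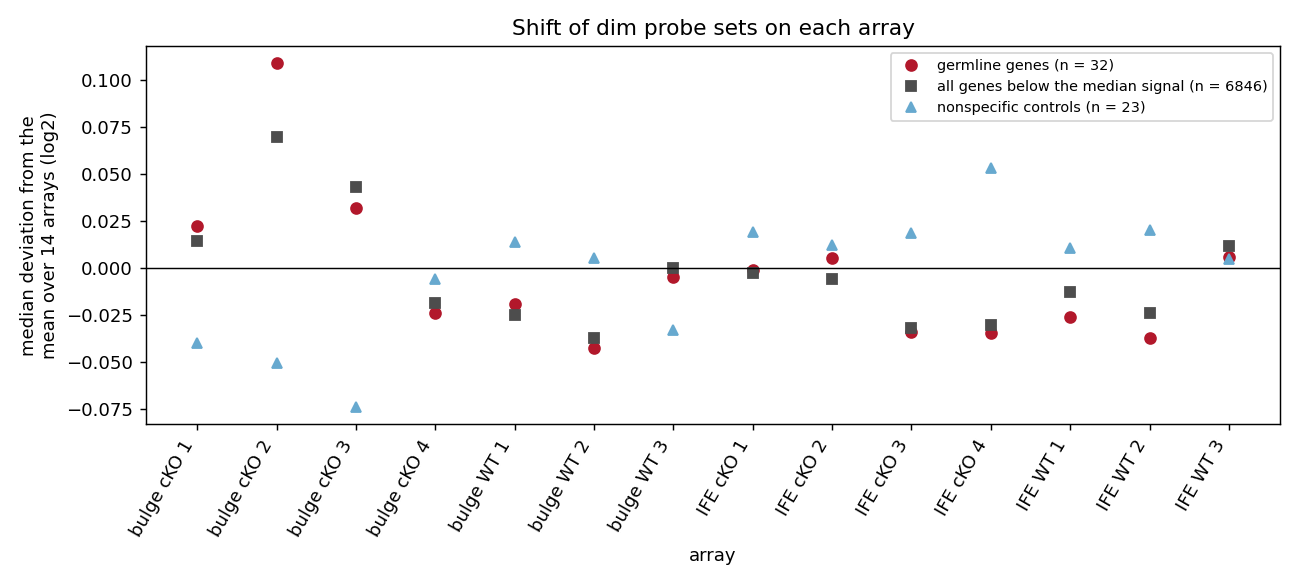
Median deviation from the mean over 14 arrays (vertical axis, log2 units) of the 32 germline genes, of the 6846 genes below the median signal and of the 23 nonspecific controls, on each array (horizontal axis, by group and replicate). The germline genes lie at 0.11 on bulge cKO replicate 2, above the dim genes at 0.07, and differ from the dim genes by at most 0.013 on the other 13 arrays.

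Of 88 further germline genes in 5 lists, 3 were higher and 0 lower in bulge cKO, where 1.98% of all genes were higher and 1.85% lower. In bulge 21 of the 88 had an unadjusted p under 0.05 (limma), 19 higher and 2 lower in cKO, where 25.7% of all genes did. In IFE 0 of the 88 passed (limma), where 0.497% of all genes did, and 8 had an unadjusted p under 0.05, all lower in cKO, where 11% of all genes did. None of 21 meiosis genes passed in bulge (median 0.05) and none of 15 piRNA and germ cell RNA genes (median 0.03), and in IFE their medians were -0.01 and -0.04. Odf1, a protein of the sperm tail, was the only one of 19 spermatid genes to pass, at 4.92 in bulge cKO, against 4.70 in bulge WT (0.22, adjusted p = 0.0286), with a list median of 0.13 in bulge and -0.00 in IFE. Cypt1 was the only one of 13 genes of X-linked germline families, at 5.30 in bulge cKO, against 5.06 in bulge WT (0.24, adjusted p = 0.0314), with list medians of 0.08 and 0.01. Without cKO replicates 2 and 3 the differences were 0.18 for Odf1 (adjusted p = 0.286) and 0.19 for Cypt1 (adjusted p = 0.411).

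Tfap2c, a transcription factor of primordial germ cells that also acts in keratinocytes, was the only one of 20 oocyte genes and germ cell transcription factors to pass in bulge. It read 6.85, 8.29, 8.11 and 7.64 in bulge cKO, against 6.84, 6.40 and 6.38 in bulge WT (1.18, adjusted p = 0.0375), and its mean was 9.47 in IFE cKO, against 9.27 in IFE WT. The rise was greatest on bulge cKO replicates 2 and 3, on which the markers of differentiated epidermis were highest, and it was 0.71 without them (adjusted p = 0.356). The part of differentiated cells in it was not tested.

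Of 31 measured repressors of germline genes, 0 passed in bulge or IFE (limma), with medians of -0.14 and -0.05. An unadjusted p under 0.05 was reached by 8 of the 31 in bulge, where 25.7% of all genes reached it, and by 8 in IFE, where 11% did, with every one of these differences below 0. Ehmt2 entered this count by the probe set with the higher mean over all arrays, the one that did not pass. On WT arrays that probe set was the dimmer, at 7.84 to 8.05, against 9.51 to 9.78 for the other. The other Ehmt2 probe set passed, with log2 differences of -3.68 in bulge and -3.66 in IFE. The count of 0 thus depends on which probe set stands for Ehmt2. Between compartments, 3 were higher and 8 lower in bulge in cKO mice, where 17.6% of all genes were higher and 14.6% lower. In WT mice 3 were higher and 8 lower, where 18.4% of all genes were higher and 16.6% lower. Dnmt1, the maintenance DNA methyltransferase, averaged 7.62 in bulge cKO, against 8.14 in IFE cKO (-0.52, adjusted p = 0.000992), and 7.58 in bulge WT, against 8.22 in IFE WT (-0.64, adjusted p = 0.000372). Tfdp1, a partner of E2F factors, gave -0.51 in cKO (adjusted p = 0.00111) and -0.66 in WT (adjusted p = 0.000309). Kdm5c, a histone demethylase, gave -0.38 in cKO (adjusted p = 0.000314) and -0.34 in WT (adjusted p = 0.000667). Usp7, a ubiquitin protease, gave -0.27 in cKO (adjusted p = 0.00325) and -0.35 in WT (adjusted p = 0.00109). These 4 were lower in bulge than in IFE in both genotypes. E2f6 and Zbtb16 were higher in bulge in both (limma). E2f6 gave 0.59 in cKO (adjusted p = 0.0053) and 0.48 in WT (adjusted p = 0.0276). Zbtb16 gave 0.60 in cKO (adjusted p = 0.0437) and 1.25 in WT (adjusted p = 0.00153).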

How the data were processed

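Biotin-labelled cDNA, amplified from total RNA, was hybridised to Affymetrix arrays, per the labels' protocols. The values are log2 signals per probe set that the authors deposited after RMA (background correction, quantile normalisation between arrays and probe summaries), per the submitters' processing notes; the sources used here give no further step. The table held 45141 probe sets: 28898 had 1 gene symbol, 551 several and 15692 none, and only those with 1 symbol were used.

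All 14 arrays entered 1 model with a mean per group, fitted to 17097 genes with lmFit and eBayes of limma 3.58.1, under R 4.3.3 and with 10 residual degrees of freedom. Two-sided p-values were adjusted over all genes (Benjamini-Hochberg), with a threshold of 0.05 and no fold minimum. The model was also run on simulated data with independent noise. Such data lack shifts shared by many genes on an array, so that run does not bear on the calls given here. Precision is limited by the number of arrays.

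The germline genes, lists, tests and alternatives were chosen with earlier results of these data known. Values on every array are given for genes past the threshold between cKO and WT, those with the 5 highest means, those with the largest difference either way in each compartment, and the 4 smallest p-values between compartments; of other lists, up to 4 called genes. Giving Ddx4 per array, and naming E2f6 and Zbtb16 beyond these 4, were chosen after their values were seen. The alternatives tried were median centring, cyclic loess, leaving out dim probe sets, averaging the probe sets of a gene, testing each probe set singly, robust fitting with an intensity trend, only the groups compared, replicate blocks, and leaving out replicates. Replicate numbers were not taken to pair the samples, since same-numbered arrays did not all correlate above 0.1. Promoters came from a RefSeq table (GRCm38.p6). Figures were drawn with matplotlib 3.10.9.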

Additional observations from a re-analysis of the deposited data

Results flagged for a closer look

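Of 64 groups of 4 arrays of a germline gene, 3 held 1 array far from the other 3 by Dixon's ratio (critical value 0.829), and chance gives about 1 in 20 such groups. Ddx4 read 3.46 on IFE cKO replicate 2 and 3.42 on the other IFE cKO arrays. Stk31 read 3.92 on bulge cKO replicate 1 and 3.84 to 3.86 on the other bulge cKO arrays. Tex14 read 6.35 on IFE cKO replicate 4 and 6.42 to 6.43 on the other IFE cKO arrays.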

How the results depend on the processing

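By the value used for a gene in each alternative, no germline difference that passed a test reversed its direction. Testing probe sets singly kept the one with the smallest p, which could hide a reversal. The second probe set of Tuba3a ran the other way in WT (bulge minus IFE, -0.06, against 0.24). The median difference of the germline genes moved by less than the SD between replicates. That SD was wider than the medians, so this does not exclude a change of sign. The median changed sign in IFE (-0.0033 to 0.03) and between compartments in cKO (-0.0058 to 0.07). In bulge, cKO against WT, the 3 calls became 0 with only the groups compared, 1 with the replicate block and 0 without cKO replicates 2 and 3 of both compartments. Leaving out 1 array gave 0 to 8: 0 without WT replicate 1 or WT replicate 2, 1 without cKO replicate 3, and 8 without cKO replicate 4. Piwil2 passed in 13 of 17 alternatives (-0.57 to -0.41, adjusted p = 0.00402 to 0.118), Rhox5 in 11 of 17 (0.33 to 0.42, adjusted p = 0.00864 to 0.291) and Syce1 in 5 of 16 (0.15 to 0.20, adjusted p = 0.0223 to 0.316). In IFE the 0 calls became 1, Rhox5, under cyclic loess (adjusted p = 0.0434), averaged probe sets (0.0489) and without IFE cKO replicate 1 (0.0438), so that leaving out 1 array gave 0 to 1. The difference of the effects had 0 calls in each alternative (0 to 0 with 1 array left out).

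Between compartments, the 5 calls in cKO became 3 under cyclic loess, median centring, the dim filter, which kept 11 germline genes, and without cKO replicates 2 and 3 (2 higher and 1 lower), and 3 to 5 with 1 array left out (3 without IFE cKO replicate 4). The 6 calls in WT became 3 with the dim filter and 5 to 6 with 1 array left out. The dim filter kept genes whose highest group mean lay above the median of all probe sets (5.79). Tdrd1 thus entered only through bulge WT (5.83) and Piwil2 only through the bulge groups, where each was high. Their bulge over IFE calls under this filter are therefore no separate check. Tuba3a in WT failed under cyclic loess (adjusted p = 0.0613) and the mean of its probe sets (0.186), Stk31 in WT passed in 6 of 15 alternatives, and in cKO Stag3 passed in 9 of 17, Syce1 in 13 of 17 and Tdrd1 in 15 of 18.

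Over all genes, 339 higher and 317 lower calls in bulge became 41 and 31 with only the groups compared, 152 and 260 with the replicate block and 60 and 20 without cKO replicates 2 and 3; in IFE 55 and 30 became 36 and 12, 26 and 7, and 38 and 3. The cause of these changes was not tested. Leaving out 1 array, the bulge counts over all genes were 57 and 59 without WT replicate 1, 62 and 72 without WT replicate 2, 577 and 410, 102 and 110, 88 and 97, and 1189 and 1364 without cKO replicates 1 to 4 in turn; in IFE they were 30 and 8 without WT replicate 1, 44 and 13 without cKO replicate 2, 34 and 9 without cKO replicate 3 and 53 and 54 without cKO replicate 4. Deviations of same-numbered arrays over all genes correlated by -0.62 to 0.18 between cKO and WT and by -0.57 to 0.25 between compartments, so the numbers were not taken to pair the samples. These correlations cannot show that the samples were unpaired. The labels do not say whether a number marks 1 animal in both compartments, and fibroblast markers were highest on cKO replicates 2 and 3 in both (5.91 and 5.55 in bulge, 5.54 and 5.49 in IFE). With genotype and number as a random block, the counts of germline calls were again 3, 0, 0, 5 and 6.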
